A study of Homo sapiens with 22 samples.

Results

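ID1, ID2, ID3, SMAD3, SMAD6, SMAD7, SKIL and BAMBI are 8 genes of BMP and TGF-beta signalling, chosen by name and with earlier results of these data known. All 8 had a row in both expression tables, among 25244 genes in the HUWE1 experiment and 25791 genes in the MIZ1 experiment. The cells were Ls174T, an established human colon carcinoma line, and their polyadenylated RNA was sequenced in 16 libraries that fall into 8 groups of 2. The compound BI8622 inhibits HUWE1, a HECT-domain ubiquitin ligase, and was given at 20 µM for 16 h with DMSO as the vehicle control. In the HUWE1 experiment the groups were cells with an shRNA against HUWE1 (shHUWE1) in BI8622 or in DMSO, and cells with the control vector in BI8622 or in DMSO. The shHUWE1 cells had been infected with a lentivirus and selected with puromycin, and the control cells carried the empty vector (pLKO). In the MIZ1 experiment every cell carried a doxycycline-inducible shRNA against MIZ1 (shMIZ1; the protein, a transcription factor with zinc fingers, is the product of ZBTB17), and the groups were cells with doxycycline (1 µg/ml, 4 days) in BI8622 or in DMSO, and cells without doxycycline in BI8622 or in DMSO. Making these cells involved sorting by flow cytometry. The groups with and without doxycycline differ in the drug as well as in the shRNA, and no group given doxycycline without the shRNA was analysed here.

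BMP and TGF-beta ligands bind pairs of serine/threonine kinase receptors, which phosphorylate receptor SMADs. SMAD3 belongs to the TGF-beta and activin branch, whereas BMP receptors act through other receptor SMADs, and both branches need the shared partner SMAD4 to reach their target genes. SMAD6 and SMAD7 are inhibitory SMADs, SKIL (SnoN) is a corepressor that binds SMADs, and BAMBI is a pseudoreceptor without a kinase domain; all 4 restrain the pathway and are themselves induced by it. ID1, ID2 and ID3 are targets of BMP signalling that encode helix-loop-helix proteins without a DNA-binding region, which capture E proteins and are associated in intestinal epithelium with the undifferentiated state.

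The level of a gene in a group was worked out in CPM (read counts scaled to the library's total) from mean levels over pairs of groups, so it carries no value per library, no error and no test. Each difference below is a description with no replicate check, the sequencing depth is unknown here, and nothing says that the 2 libraries of a group were grown as separate cultures. A gene was called higher or lower at 1.5-fold or more, among the 24715 genes of the HUWE1 experiment and the 25251 genes of the MIZ1 experiment whose mean level was at least 1 CPM. All 8 genes passed that minimum in both experiments. CPM is not corrected for gene length, so levels are compared between groups and not between genes, and the tables of the 2 experiments were normalized separately.

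HUWE1 (GRCh37 chromosome X, 53559057 to 53713697, minus strand) was at 176 CPM in shHUWE1 cells in BI8622 and 218 CPM in shHUWE1 cells in DMSO, against 460 and 420 CPM in control vector cells in BI8622 and in DMSO. ZBTB17 (chromosome 1, 16268364 to 16302627, minus strand) was at 11.4 CPM with doxycycline in BI8622 and 11.0 CPM with doxycycline in DMSO, against 22.6 and 15.7 CPM without doxycycline in BI8622 and in DMSO. Both targeted genes were thus lower in the groups labelled as depleted. Of 9 listed markers of colon epithelium, 8 were above 5 CPM in every group, and KRT20 was between 2.54 and 9.48 CPM. Their summed level was higher in BI8622 in each kind of cell, at 3295 CPM in BI8622 against 2570 CPM in DMSO in shHUWE1 cells, 2636 against 1900 CPM in control vector cells, 2919 against 2016 CPM with doxycycline and 2617 against 1874 CPM without doxycycline. The keratins KRT8 and KRT18 and the cadherin CDH17 were higher with the sum, but EPCAM and the intestinal transcription factors CDX1 and CDX2 were lower in BI8622 in all 4 kinds of cell. CDX1 was at 38.2 CPM in BI8622 against 68.2 CPM in DMSO in shHUWE1 cells, 37.1 against 61.1 CPM in control vector cells, 16.3 against 58.0 CPM with doxycycline and 16.9 against 60.8 CPM without doxycycline. The goblet cell mucin MUC2 was at 400.0 and 343 CPM in shHUWE1 cells in BI8622 and in DMSO, against 81.7 and 52.6 CPM in control vector cells in BI8622 and in DMSO. The part of these markers in the differences below was not tested, and in bulk RNA fewer cells of a type and less RNA per cell cannot be told apart. Of 6 fibroblast, 5 leukocyte and 4 endothelial markers, at most 2 of each list had a level, and no list summed to more than 8.62 CPM in any group.

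BI8622 was accompanied by a higher level of SKIL in every kind of cell. The gene lies on chromosome 3 (GRCh37, 170075130 to 170114623, plus strand). SKIL was at 125 CPM in shHUWE1 cells in BI8622, against 52.7 CPM in shHUWE1 cells in DMSO, and at 117 CPM in control vector cells in BI8622, against 46.8 CPM in control vector cells in DMSO. In the MIZ1 experiment it was at 80.3 CPM with doxycycline in BI8622, against 44.9 CPM with doxycycline in DMSO, and at 86.5 CPM without doxycycline in BI8622, against 49.4 CPM without doxycycline in DMSO. The 4 BI8622 levels all lay above the 4 DMSO levels, in both experiments. The differences were 2.38-fold in shHUWE1 cells and 2.50-fold in control vector cells, and 1.79-fold with and 1.75-fold without doxycycline. In shHUWE1 cells and control vector cells, 99.4% and 99.0% of all genes tested had a lower difference than SKIL, compared with 93.4% and 91.1% in the cells with and without doxycycline.

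BAMBI (chromosome 10, 28966439 to 28971861, plus strand) followed SKIL in direction. It was at 14.7 CPM in shHUWE1 cells in BI8622, against 10.6 CPM in DMSO, and at 16.8 CPM in control vector cells in BI8622, against 11.3 CPM in DMSO. With doxycycline it was at 17.6 CPM in BI8622, against 10.1 CPM in DMSO, and without doxycycline at 18.6 CPM in BI8622, against 8.68 CPM in DMSO. The fold was 1.75 with and 2.14 without doxycycline, but 1.39 in shHUWE1 cells and 1.49 in control vector cells, the last just inside the threshold. The promoter windows of SKIL and BAMBI are shown because these were the members with higher levels in BI8622 in all 4 kinds of cell by at least 1.3-fold. Each runs from 250 bases before to 50 bases after the RefSeq start on GRCh38.p14, 5′ to 3′ on the gene's strand, with capitals at the searched motifs: CACGTG (E-box), GGCGCC (a GC-rich element that BMP SMADs can bind), CAGAC (the SMAD box), GTCTAGAC (a pair of SMAD boxes) and TGACGTCA (a cAMP response element).
SKIL, chr3:170357465-170357764, plus strand: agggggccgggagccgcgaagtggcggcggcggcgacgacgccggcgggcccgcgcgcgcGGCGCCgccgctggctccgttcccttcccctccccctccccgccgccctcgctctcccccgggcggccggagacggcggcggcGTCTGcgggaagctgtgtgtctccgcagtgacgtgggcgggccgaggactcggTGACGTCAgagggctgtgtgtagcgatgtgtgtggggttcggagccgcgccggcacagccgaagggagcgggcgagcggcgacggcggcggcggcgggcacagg
BAMBI, chr10:28677271-28677570, plus strand: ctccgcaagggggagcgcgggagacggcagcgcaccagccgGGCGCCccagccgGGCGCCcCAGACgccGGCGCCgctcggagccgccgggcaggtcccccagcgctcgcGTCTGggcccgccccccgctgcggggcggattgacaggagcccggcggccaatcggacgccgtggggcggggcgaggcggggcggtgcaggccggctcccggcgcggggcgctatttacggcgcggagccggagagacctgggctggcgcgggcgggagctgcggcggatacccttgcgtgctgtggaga
Both strands were searched, and none of the 5 motifs contains another. The SKIL window held 1 GGCGCC, 1 CAGAC and 1 TGACGTCA, and the BAMBI window held 3 GGCGCC and 2 CAGAC. Of 35116 RefSeq promoter windows of the same length, 19.2% held GGCGCC, 45.3% held CAGAC, 1.85% held TGACGTCA, 7.26% held CACGTG and 0.202% held GTCTAGAC. A match describes letters only and is not evidence of binding.

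The 3 ID genes did not move together. ID3 (chromosome 1, 23884417 to 23885992, minus strand) had a lower level in BI8622 in all 4 kinds of cell. It was at 59.2 CPM in shHUWE1 cells in BI8622, against 72.9 CPM in DMSO, and at 65.4 CPM in control vector cells in BI8622, against 92.0 CPM in DMSO. With doxycycline ID3 was at 52.9 CPM in BI8622, against 89.3 CPM in DMSO, and without doxycycline at 60.6 CPM in BI8622, against 91.7 CPM in DMSO. On the log2 scale these differences were -0.30 in shHUWE1 cells, -0.49 in control vector cells, -0.75 with doxycycline and -0.60 without doxycycline. Every BI8622 level of ID3 was below every DMSO level of the same experiment.

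ID2 (chromosome 2, 8818975 to 8824591, plus strand) was lower in BI8622 mainly in the MIZ1 experiment. With doxycycline it was at 47.0 CPM in BI8622, against 91.6 CPM in DMSO, and without doxycycline at 47.9 CPM in BI8622, against 92.0 CPM in DMSO, which are ratios of 0.513 and 0.521. In the HUWE1 experiment ID2 was at 113 CPM in shHUWE1 cells in BI8622, against 117 CPM in DMSO, and at 99.8 CPM in control vector cells in BI8622, against 109 CPM in DMSO. Those ratios were 0.964 and 0.911, well inside the threshold. With and without doxycycline, only 3.31% and 4.14% of all genes tested had a lower difference than ID2, compared with 47.1% in shHUWE1 cells and 33.3% in control vector cells.

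ID1 (chromosome 20, 30193086 to 30194318, plus strand) had the opposite sign in the HUWE1 experiment and differed little in the MIZ1 experiment. It was at 42.3 CPM in shHUWE1 cells in BI8622, against 28.5 CPM in DMSO, and at 36.4 CPM in control vector cells in BI8622, against 27.0 CPM in DMSO. With doxycycline ID1 was at 35.3 CPM in BI8622, against 34.2 CPM in DMSO, and without doxycycline at 39.0 CPM in BI8622, against 36.3 CPM in DMSO. The folds were 1.48 and 1.35 in shHUWE1 and control vector cells, and 1.03 and 1.07 with and without doxycycline, so ID1 was not called in any of the 4 comparisons. The promoter windows of ID2 and ID3 are shown as the members of this family that were called lower.
ID2, chr2:8681806-8682105, plus strand: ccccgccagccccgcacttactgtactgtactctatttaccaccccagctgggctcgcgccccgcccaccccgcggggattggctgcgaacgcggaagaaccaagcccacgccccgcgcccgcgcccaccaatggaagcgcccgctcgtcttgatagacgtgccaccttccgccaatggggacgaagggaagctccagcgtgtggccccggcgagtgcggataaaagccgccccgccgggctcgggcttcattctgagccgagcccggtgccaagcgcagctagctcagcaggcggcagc
ID3, chr1:23559452-23559751, minus strand: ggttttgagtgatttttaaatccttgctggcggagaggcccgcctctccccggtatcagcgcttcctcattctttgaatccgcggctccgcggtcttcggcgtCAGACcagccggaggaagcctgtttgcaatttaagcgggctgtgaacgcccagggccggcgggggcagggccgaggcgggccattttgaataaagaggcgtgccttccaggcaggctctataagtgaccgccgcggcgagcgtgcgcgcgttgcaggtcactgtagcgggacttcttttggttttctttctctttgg
The ID2 window held none of the 5 motifs and the ID3 window held 1 CAGAC. The window of ID1 also held none of them, which says only that these letters are not in those 300 bases.

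Among the SMAD genes of the 8, the inhibitory SMAD6 was the only one that passed the threshold with BI8622, and only in the MIZ1 experiment. SMAD2, which is outside the 8, was past it in shHUWE1 cells and with doxycycline (log2 differences of 0.64 and 0.70). It was inside the threshold in control vector cells and without doxycycline (0.31 and 0.51). SMAD6 (chromosome 15, 66994574 to 67075187, plus strand) was at 11.0 CPM with doxycycline in BI8622, against 16.6 CPM in DMSO, and at 13.2 CPM without doxycycline in BI8622, against 19.9 CPM in DMSO. Both ratios, 0.664 and 0.665, lay just past the threshold, and the call was lost in both arms with 0.5 CPM added to each level (log2 differences of -0.57 with and -0.57 without doxycycline) and with doxycycline when levels were solved on the log2 scale (-0.50). In shHUWE1 cells SMAD6 was at 17.3 CPM in BI8622, against 15.7 CPM in DMSO. In control vector cells it was at 20.7 CPM in BI8622, against 21.9 CPM in DMSO. SMAD6 thus shared the sign of the MIZ1 experiment in control vector cells but not in shHUWE1 cells. Its promoter window is shown because it was the only window of the 8 genes with the paired SMAD box GTCTAGAC, in capitals.
SMAD6, chr15:66701986-66702285, plus strand: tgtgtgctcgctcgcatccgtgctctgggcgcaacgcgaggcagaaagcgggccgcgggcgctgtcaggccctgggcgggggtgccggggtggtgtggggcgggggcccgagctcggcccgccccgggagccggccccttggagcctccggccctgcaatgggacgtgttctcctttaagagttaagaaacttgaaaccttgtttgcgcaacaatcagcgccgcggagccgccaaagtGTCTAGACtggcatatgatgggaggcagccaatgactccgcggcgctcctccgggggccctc

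The second inhibitory SMAD, SMAD7 (chromosome 18, 46446223 to 46477335, minus strand), was the steadiest of the 8 genes in the HUWE1 experiment, where its highest level was 1.08 times its lowest. It was at 15.7 CPM in shHUWE1 cells in BI8622, against 16.1 CPM in DMSO, and at 16.8 CPM in control vector cells in BI8622, against 15.6 CPM in DMSO. With doxycycline SMAD7 was at 16.3 CPM in BI8622, against 16.2 CPM in DMSO, and without doxycycline at 15.4 CPM in BI8622, against 18.3 CPM in DMSO. SMAD7 thus lay within 1.2-fold in every comparison of BI8622 with DMSO.

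SMAD3 (chromosome 15, 67356101 to 67487511, plus strand), the receptor SMAD of the TGF-beta branch, was higher in BI8622 in the MIZ1 experiment without reaching the threshold. With doxycycline it was at 44.8 CPM in BI8622, against 32.5 CPM in DMSO, and without doxycycline at 45.4 CPM in BI8622, against 34.0 CPM in DMSO, which are folds of 1.38 and 1.33. In the HUWE1 experiment SMAD3 was at 38.7 CPM in shHUWE1 cells in BI8622, against 38.9 CPM in DMSO, and at 35.3 CPM in control vector cells in BI8622, against 32.8 CPM in DMSO. The folds there were 0.995 and 1.08.

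Counted over the 8 genes, 1 was called higher and none lower in BI8622 in shHUWE1 cells, where 6.54% of all genes tested were called higher and 6.78% lower. In control vector cells the count was also 1 higher and none lower, against 10.4% of all genes higher and 5.83% lower. With doxycycline 2 of the 8 were called higher and 3 lower, where 12.7% of all genes were higher and 10.9% lower. Without doxycycline the same 5 genes were called in the same directions, against 15.2% of all genes higher and 11.5% lower. SKIL was the gene called in shHUWE1 and control vector cells, and SKIL, BAMBI, ID2, ID3 and SMAD6 were called in both arms of the MIZ1 experiment, SMAD6 without holding under every setting: the count was 4 in both arms with 0.5 CPM added, and 4 with doxycycline on the log2 scale. Of genes with a mean of at least 5 CPM, as all 8 had, 9.84% were called in either direction in shHUWE1 cells and 12.2% in control vector cells. With and without doxycycline those shares were 21.6% and 24.1%. In a list of 8 genes a count of 1 does not stand apart from these shares. The counts in the MIZ1 experiment were not tested against them, and the 8 genes were chosen with earlier results known. Just inside the threshold were BAMBI in control vector cells (1.49-fold) and ID1 in shHUWE1 cells (1.48-fold), and just past it were ID3 (a ratio of 0.661) and SMAD6 (0.665) without doxycycline. The differences between the experiments were not tested, and the experiments differ in vector, in how the cells were made and in the normalization of their tables, which cannot be told apart here.

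Depletion of HUWE1 by shRNA asks whether loss of the ligase is accompanied by the same differences as its inhibitor. None of the 8 genes was called for shHUWE1 against the control vector, in DMSO or in BI8622, where 5.67% and 5.01% of all genes tested were called in either direction. Of genes with a mean of at least 5 CPM, as all 8 had, 1.82% and 1.68% were called. SMAD6 came nearest, at 15.7 CPM in shHUWE1 cells in DMSO, against 21.9 CPM in control vector cells in DMSO, a ratio of 0.719; 3.05% of all genes tested had a lower difference. In BI8622 SMAD6 was at 17.3 CPM in shHUWE1 cells, against 20.7 CPM in control vector cells. ID3 was also lower, at 72.9 CPM in shHUWE1 cells in DMSO, against 92.0 CPM in control vector cells in DMSO, and at 59.2 CPM in shHUWE1 cells in BI8622, against 65.4 CPM in control vector cells in BI8622. SKIL, in contrast, was at 52.7 CPM in shHUWE1 cells in DMSO, against 46.8 CPM in control vector cells in DMSO, a fold of 1.13. BAMBI had ratios of 0.939 in DMSO and 0.873 in BI8622. Both lay well inside the threshold and have no replicate check, so no sign is read from them. SMAD3 was higher in shHUWE1 cells by 1.19-fold in DMSO and 1.10-fold in BI8622. HUWE1 itself was at 218 CPM in shHUWE1 cells in DMSO, so the depletion was partial.

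With doxycycline-induced shMIZ1 the members again stayed inside the threshold. None of the 8 genes was called between cells with and without doxycycline, in DMSO or in BI8622, where 3.66% and 3.68% of all genes tested were called, and 0.655% and 0.701% of those with a mean of at least 5 CPM. SMAD6 had the largest difference of the 8 in both treatments, at 16.6 CPM with doxycycline in DMSO, against 19.9 CPM without doxycycline in DMSO, and at 11.0 CPM with doxycycline in BI8622, against 13.2 CPM without doxycycline in BI8622. On the log2 scale both differences of SMAD6 were close, -0.26 in DMSO and -0.27 in BI8622. ID2 was nearly level with and without doxycycline, by ratios of 0.996 in DMSO and 0.980 in BI8622. The level of SKIL with doxycycline was 0.909 times that without it in DMSO and 0.928 times in BI8622. BAMBI had a fold of 1.16 in DMSO and a ratio of 0.947 in BI8622. Its log2 difference in DMSO fell from 0.21 to 0.07 when levels were solved on the log2 scale. The BI8622 differences of SKIL, BAMBI, ID2, ID3 and SMAD6 were thus of one sign with and without doxycycline. ZBTB17 was at 11.4 CPM with and 22.6 CPM without doxycycline in BI8622, and at 11.0 against 15.7 CPM in DMSO. The depletion was therefore partial, and whether these differences depend on MIZ1 was not tested.

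Of 49 further genes of the pathway (ligands, receptors, other SMADs, inhibitors, targets and E proteins), 40 passed the minimum level. In shHUWE1 cells 4 of the 40 (10%) were called higher with BI8622 and 2 (5%) lower, beside 6.54% and 6.78% of all genes tested, and in control vector cells 4 (10%) were higher and 1 (2.5%) lower, beside 10.4% and 5.83%. With doxycycline 7 (17.5%) were higher and 4 (10%) lower, beside 12.7% and 10.9%, and without doxycycline 7 (17.5%) were higher and 3 (7.5%) lower, beside 15.2% and 11.5%. The median of the 40 genes on the log2 scale was -0.03 in shHUWE1 cells, 0.15 in control vector cells, 0.07 with doxycycline and 0.09 without doxycycline, beside -0.03, 0.02, 0.0088 and 0.04 for all genes tested. By role, none of the 11 receptors was called in control vector cells and 2 were higher without doxycycline, whereas of the 6 targets 2 were higher in control vector cells and 4 without doxycycline.

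GDF15, a distant member of the TGF-beta ligand family and a stress-responsive cytokine, had the largest mean difference of the listed pathway genes of at least 5 CPM. It was at 222 CPM in shHUWE1 cells in BI8622, against 60.9 CPM in DMSO, and at 239 CPM in control vector cells in BI8622, against 45.6 CPM in DMSO. With doxycycline GDF15 was at 379 CPM in BI8622, against 31.0 CPM in DMSO, and without doxycycline at 382 CPM in BI8622, against 27.9 CPM in DMSO. CDKN1A encodes the cell cycle inhibitor p21 and is a target of TGF-beta and of p53. It was at 59.3 CPM in shHUWE1 cells in BI8622, against 42.0 CPM in DMSO. In control vector cells CDKN1A was at 58.5 CPM in BI8622, against 42.4 CPM in DMSO. With doxycycline it was at 71.0 against 41.6 CPM, and without doxycycline at 79.3 against 36.3 CPM. CDKN1A was past the threshold only in the MIZ1 experiment. The coreceptor gene ENG was at 6.86 CPM in shHUWE1 cells in BI8622, against 5.10 CPM in DMSO. In control vector cells it was at 8.15 CPM in BI8622, against 5.54 CPM in DMSO. With doxycycline ENG was at 5.76 against 3.64 CPM, and without doxycycline at 10.3 against 5.69 CPM. With BI8622 it too was past the threshold only in the MIZ1 experiment. ENG was also called lower with than without doxycycline, by log2 differences of -0.64 in DMSO and -0.85 in BI8622. CDKN2B, which encodes the inhibitor p15 and is a TGF-beta target repressed by MYC through MIZ1, is named here after its values were seen. Its levels were low, at 3.02 CPM in shHUWE1 cells in BI8622 against 0.596 CPM in DMSO, and at 1.76 CPM in control vector cells in BI8622 against 0.388 CPM in DMSO. With doxycycline CDKN2B was at 4.66 CPM in BI8622 against 0.621 CPM in DMSO, and without doxycycline at 7.42 CPM in BI8622 against 0.541 CPM in DMSO. Its DMSO levels lay near the offset of about 0.24 CPM that the averaging adds to each gene, so no fold is given. CDKN2B still passed the minimum mean level, so it is among the targets counted above as higher and is plotted with the pathway genes.

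The genes whose levels over the 8 groups were most like those of each member were found among 15573 genes of at least 5 CPM in every group, by Pearson's r over 8 group levels centred within each experiment. For SKIL they were LIG4, the antisense RNA GABPB1-AS1 and CEPT1 (r of 0.998, 0.998 and 0.995), and for BAMBI the readthrough gene MIA-RAB4B, MLXIPL and CTAGE5 (0.998, 0.997 and 0.996). For ID2 they were ZRANB2, ZDHHC23 and CNOT1 (0.997, 0.995 and 0.994), and for ID3 ALG8, CBX1 and NUS1 (0.996, 0.995 and 0.994). For ID1 they were ZNF260, ZNF253 and ZNF182 (0.990, 0.989 and 0.985), and for SMAD3 NUCB2, PI4KAP2 and LATS2 (0.992, 0.992 and 0.991). For SMAD6 they were UQCRB, ZNF689 and GLRX (0.982, 0.974 and 0.973). SMAD7, which varied least in the HUWE1 experiment, had its nearest genes in GPALPP1, ZNF562 and GMCL1 (0.920, 0.913 and 0.912). Reads of GABPB1-AS1 and MIA-RAB4B may be shared with overlapping genes. These values are a description, since the 8 points share their pair means and most of the spread between them is that between BI8622 and DMSO.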

How the data were processed

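RNA from 16 libraries of Ls174T cells was sequenced on the Illumina platform; per the labels and the study's methods, reads passed through CASAVA and FastQC, were aligned with Bowtie (version 0.12.8) to hg19, and were compared with edgeR by the authors. The deposited tables hold, for each pair of groups, a mean log2 CPM over the 4 libraries of the pair, and fold changes and p-values of the authors' own comparisons, which were not used. The level of each group was solved by least squares from the mean CPM of its pairs (4 pairs in the HUWE1 experiment, which determine the 4 groups exactly, and 5 in the MIZ1 experiment). The planned count models could not be run on these means, so there are no errors and no tests, and which library kit was used for which library is not stated. In the MIZ1 experiment the largest departure of a gene's pair means from the solved levels had a median of 0.000524 log2 over all genes tested. The largest among the 8 members was 0.00295 log2. The CPM columns summed to more than their nominal total by 0.234 and 0.240 CPM per gene, an offset added before averaging. Genes were called at 1.5-fold with a mean level of at least 1 CPM. Named genes were the 8 members, the 3 other pathway genes of at least 5 CPM with the largest mean absolute BI8622 difference, the 3 genes most like each member, and the targeted genes. Some of the listed cell type markers were named as well, and CDKN2B and SMAD2 were named after their values were seen. Members and lists were chosen with earlier results of these data known. Alternatives were solving on the log2 scale, a 0.5 CPM pseudocount, centring on the median gene, other level minimums and a 2-fold threshold. Positions are from GENCODE on GRCh37 and promoters from RefSeq. Solving was run on simulated data whose pair means were built as the linear averages that it inverts. That run checks the arithmetic only, not how the deposited means were made. The programs were python 3.11.15, numpy 2.4.6 and pandas 2.3.3. The 6 ChIP libraries were not analysed here.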

Additional observations from a re-analysis of the deposited data

How the results depend on the processing

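Solving the levels on the log2 scale gave 2 called genes in place of 1 with BI8622 in control vector cells (BAMBI beside SKIL) and 2 in place of 1 in shHUWE1 cells (ID1 beside SKIL). Subtracting the averaging offset, chosen after seeing the data, also gave 2 in control vector cells, and centring on the median of all genes gave 2 in shHUWE1 cells. Calls were also lost: adding 0.5 CPM gave 4 in place of 5 with and without doxycycline, and the log2 scale 4 in place of 5 with doxycycline, SMAD6 being the gene lost each time. A 2-fold threshold left 1 of 5 without doxycycline (BAMBI) and 0 of 5 with doxycycline. Raising the minimum level to 5 CPM lowered the share of all genes called between shHUWE1 and control vector to 1.82% in DMSO and 1.68% in BI8622, and between cells with and without doxycycline to 0.655% and 0.701%. For BI8622 against DMSO it lowered the share from 13.3% to 9.84% in shHUWE1 cells and from 16.2% to 12.2% in control vector cells. With doxycycline that share went from 23.7% to 21.6%, and without doxycycline from 26.7% to 24.1%. No difference of a member reversed its sign past the threshold under any alternative. Solving on the log2 scale moved 3 of 64 member differences by 0.1 or more. With BI8622 SKIL moved to 1.58 in shHUWE1 cells and to 1.53 with the control vector. BAMBI with minus without doxycycline in DMSO moved from 0.21 to 0.07. Leaving out either doxycycline pair in the MIZ1 experiment, also chosen after seeing the data, moved none of the 32 member differences of that experiment by 0.1. No paired analysis was possible because the tables hold means over libraries and not a value for each library. For the same reason the runs without each replicate and with another count model were not run, so the spread between libraries is unknown for every value given.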
